A study of Mus musculus with 12 samples.

Results

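Eomes and Tbx21 encode EOMES and T-bet, the T-box transcription factors of effector and memory lymphocytes, and were followed here through 12 RNA-seq libraries of mouse splenic CD4+ T cells. The pair was chosen by gene symbol, 2 of 43626 genes in the count table, without use of measured values. Donor mice carried 1 loxP-flanked (flox) allele and 1 GFP reporter allele of Eomes. They had either no cre (called Het) or Lck-cre (called KO), a cre transgene driven by a promoter active in T lineage cells. In every group, CD45RBhi CD25- CD4+ naive T cells had been transferred into adult male Rag2-/- recipients, which lack T and B cells of their own, and the spleens were taken 3 weeks later. From each of 6 recipients, CD4+ cells were sorted into a GFP-positive and a GFP-negative fraction. This gave 4 groups of 3 libraries, the GFP-negative and GFP-positive sorts of Het and of KO cells, and equal numbers within a genotype mark the same recipient. How many donors were used, and whether donor cells were pooled, is not given in the sources used here. In all 4 groups 1 Eomes allele carried the reporter, so no group had 2 unmodified alleles.

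T-box factors bind a shared DNA motif through the T-box domain. In T cells, T-bet is known as the regulator of type 1 helper cells, induced by interferon-gamma and interleukin-12 signals. EOMES, best known in CD8 T cells and NK cells, shares many target genes with T-bet, among them Ifng and genes of cytotoxic granules, and also appears in a subset of CD4+ T cells.

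In the deposited annotation, Eomes (ENSMUSG00000032446.10) lies on chromosome 9 of GRCm38 from 118478212 to 118486132 on the plus strand, with 6 exons whose summed length is 4155 bases. Tbx21 (ENSMUSG00000001444.2) lies on chromosome 11 from 97098071 to 97115331 on the minus strand, with 6 exons and a summed length of 2488 bases. No other gene of that annotation overlapped the span of either gene (0 in both cases). Because the sort reads a reporter in the Eomes locus, the sequences around the start sites of both genes are shown here, from 250 bases before to 50 bases after each start, 5′ to 3′ on the gene's own strand, as RefSeq gives them for GRCm38.p6. The Eomes window is chr9:118477939-118478238 (plus strand) and the Tbx21 window chr11:97115282-97115581 (minus strand). Capitals mark matches to the motifs named after the sequences.
Eomes: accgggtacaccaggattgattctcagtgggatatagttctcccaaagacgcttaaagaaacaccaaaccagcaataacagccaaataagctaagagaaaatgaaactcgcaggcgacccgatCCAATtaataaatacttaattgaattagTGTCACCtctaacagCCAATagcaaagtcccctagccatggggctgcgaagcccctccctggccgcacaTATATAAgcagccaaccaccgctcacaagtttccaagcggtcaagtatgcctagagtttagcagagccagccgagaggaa
Tbx21: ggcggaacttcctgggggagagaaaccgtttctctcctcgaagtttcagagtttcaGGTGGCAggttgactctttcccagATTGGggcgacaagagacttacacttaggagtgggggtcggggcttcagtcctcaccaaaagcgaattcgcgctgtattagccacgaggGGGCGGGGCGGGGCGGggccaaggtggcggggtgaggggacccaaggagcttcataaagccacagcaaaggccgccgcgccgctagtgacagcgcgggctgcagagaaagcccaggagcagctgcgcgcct

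The start regions of the 2 genes differed in composition and in the motifs matched. The Eomes window had a GC content of 47.3% and 10 CG pairs, and the Tbx21 window 62.0% and 21 CG pairs, against medians of 52.7% and 7 over 32851 mouse promoters of the same length. Motifs were searched on both strands. The Eomes window held a TATA box (TATANAA, found as TATATAA from position -30), which 11.3% of all promoters hold. It also held CCAAT from -127 and from -84, a motif in 37.4% of promoters. The Tbx21 window held no TATANAA match. It had CCAAT on the minus strand (read as ATTGG) from -170. It also had 3 matches to the GC box GGGCGG in a single run from -81, -76 and -71, where neighbouring matches share a base, and 35.7% of promoters hold this motif. A loose T-box core, GGTGNNA, which 44.3% of promoters hold, matched in each window, from -99 on the minus strand in Eomes and from -194 in Tbx21. The stricter T-box sequence GGTGTGA (3.98% of promoters) and TGTGGT for RUNX factors (16.8%) matched neither window. These matches are letters in a window, not measured binding.

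The libraries differed in depth between the sorts. Total counts of GFP-negative libraries ran from 11492908 to 15026613 for Het and from 12067137 to 18167236 for KO. Those of GFP-positive libraries ran from 4364155 to 8400168 for Het and from 2116894 to 8608902 for KO. GFP-positive cells were the rarer sort, at 18000 to 117000 sorted cells against 645000 to 2100000 GFP-negative cells. The 4 features that each held over 5% of a library's counts took 16.3% to 30.9% of the counts together, except in replicate 2 of Het GFP-positive (58.3%) and of KO GFP-positive (54.3%). The CD4+ identity held: Cd4 stood at 435 to 946 CPM (counts scaled to a common library size of 1000000 reads, with TMM factors) in every library, and the 2 CD8 T cell markers at 0.39 to 4.57 CPM in sum. The summed CPM of 11 CD4 T cell markers was lower in the GFP-positive library in 6 of 6 recipients (2160 to 2800 against 2990 to 3860 CPM over both genotypes). That of 12 myeloid markers was higher in 6 of 6 (303 to 3470 against 47.1 to 1530 CPM). That of 6 erythroid markers was also higher in 6 of 6 (20.9 to 101 against 4.02 to 42.4 CPM in Het, and 60.2 to 208 against 17.2 to 86.6 CPM in KO). Of 4 Y-linked genes, the summed level was 0 to 32.0 CPM in Het and 41.5 to 221 CPM in KO libraries, so genotype and this difference between the cells cannot be told apart.

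NK cells also express both T-box genes, and type 1 innate lymphoid cells (ILC1) express Tbx21. Their 12 markers summed to 14.8 to 40.3 CPM (GFP-negative) and 15.7 to 86.6 CPM (GFP-positive) in Het libraries, and to 16.1 to 39.7 and 15.9 to 49.1 CPM in KO libraries, higher in the GFP-positive library in 5 of 6 recipients. The rise was carried by Fcer1g and Tyrobp, which myeloid cells also express. Their sum was higher in the GFP-positive library in 6 of 6 recipients, while that of the other 10 markers was higher in 2 of 6. Those 10 summed to 8.82 to 9.67 CPM (GFP-negative) and 3.07 to 9.83 CPM (GFP-positive) in Het, and to 13.2 to 34.2 and 4.71 to 35.5 CPM in KO libraries. Ncr1, the defining receptor of these cells, was at 0 to 0.779 CPM in Het GFP-positive and 0.213 to 3.57 CPM in KO GFP-positive libraries. Khdc1a was at 0 in both KO groups. The highest of the 10 in KO GFP-positive libraries were Klre1 (0 to 11.4 CPM), Klra3 (0.707 to 11.1 CPM) and Klrb1c (1.43 to 6.38 CPM). In Het GFP-positive libraries these were at 0.267 to 1.56, 0 to 2.63 and 1.17 to 1.95 CPM. The part of such cells in the results was not tested.

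Eomes was low in GFP-negative cells and high in GFP-positive cells, in both genotypes. Since GFP marks the Eomes locus, this difference checks the sort. In Het GFP-negative libraries 1, 2 and 3 it had 122, 54 and 38 reads, or 9.19, 3.68 and 2.16 CPM. In Het GFP-positive libraries it had 861, 316 and 923 reads, or 115, 123 and 89.8 CPM. Every Het GFP-positive library lay above every Het GFP-negative one. KO GFP-negative libraries held 58, 32 and 44 Eomes reads, or 4.73, 1.95 and 2.19 CPM. KO GFP-positive libraries held 439, 64 and 268 reads, or 46.6, 45.7 and 31.6 CPM. The KO GFP-positive libraries thus lay above all GFP-negative libraries and below all Het GFP-positive libraries. The group means were 5.01 ± 3.70 and 109 ± 17.4 CPM in the negative and positive sorts of Het cells, and 2.95 ± 1.54 and 41.3 ± 8.44 CPM in those of KO cells (SD, n = 3). Reads are assigned per gene, so a floxed, a recombined and a reporter transcript that share exons cannot be told apart, and the Eomes reads in KO cells do not show which part of the gene was transcribed.

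Tbx21 was abundant in all 4 groups. In Het GFP-negative libraries it had 1973, 2002 and 1307 reads, or 149, 136 and 74.2 CPM. In Het GFP-positive libraries it had 1095, 348 and 662 reads, or 146, 136 and 64.4 CPM. The 2 Het sorts overlapped over nearly their whole range. In KO GFP-negative libraries Tbx21 had 2270, 2520 and 4650 reads, or 185, 153 and 231 CPM. In KO GFP-positive libraries it had 2222, 239 and 2108 reads, or 236, 171 and 248 CPM. The KO sorts overlapped with each other, and the lowest KO library of either sort (153 CPM) lay above the highest Het library (149 CPM). Group means were 120 ± 39.9 and 115 ± 44.5 CPM in Het GFP-negative and GFP-positive cells and 190 ± 39.1 and 218 ± 41.8 CPM in KO GFP-negative and GFP-positive cells (SD, n = 3). Recipients kept their order in Tbx21 across the sorts: replicate 1 was highest and 3 lowest in both Het sorts, and 3 highest and 2 lowest in both KO sorts.

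**Figure D1:**
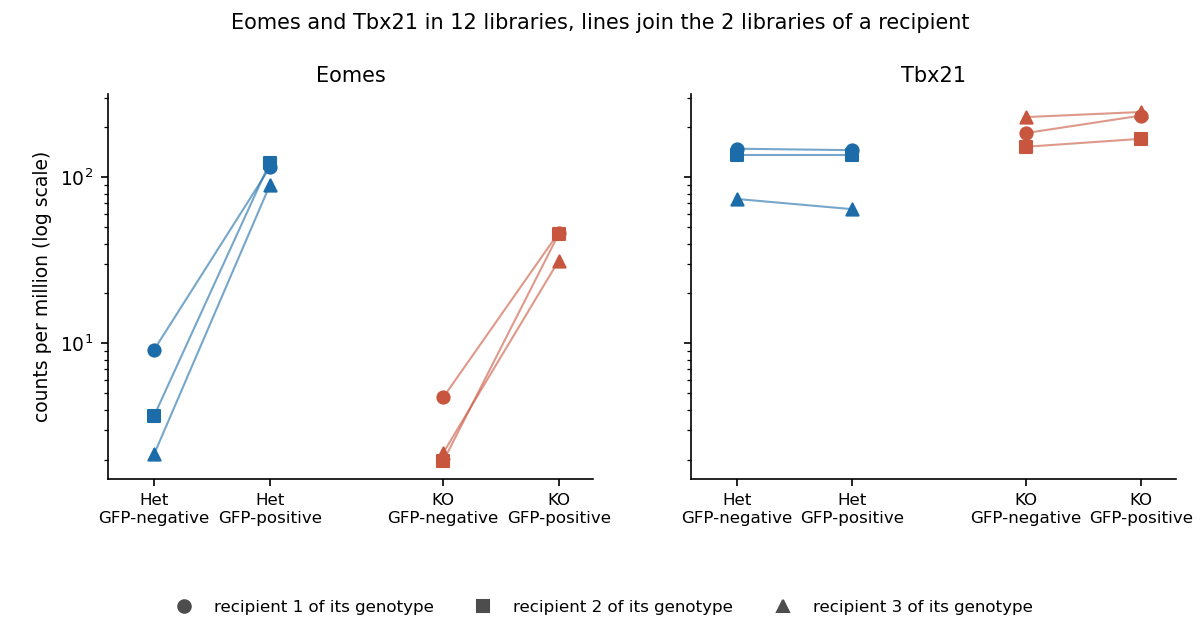
Eomes and Tbx21 levels (TMM-scaled CPM, log axis) in each of the 12 libraries by group, with lines joining the libraries of a recipient. GFP-positive libraries lie between 31.6 and 123 CPM for Eomes and GFP-negative libraries between 1.95 and 9.19 CPM, while Tbx21 lies between 64.4 and 248 CPM throughout.

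Set per kilobase, so that the 2 genes can be compared, Tbx21 exceeded Eomes in every library. On the scale of RPKM, reads per kilobase of exon after scaling to library size, Eomes was at 1.21 ± 0.891 and 26.3 ± 4.19 in GFP-negative and GFP-positive Het cells and at 0.711 ± 0.371 and 9.94 ± 2.03 in those of KO (SD, n = 3). Tbx21 was at 48.1 ± 16, 46.4 ± 17.9, 76.3 ± 15.7 and 87.8 ± 16.8 RPKM in the same order. From the highest level to the lowest, the order was Tbx21 in the positive and negative KO sorts and the negative and positive Het sorts, then Eomes in the positive Het and KO sorts, and last Eomes in the negative Het and KO sorts. Within Tbx21, the 2 KO levels did not differ beyond their spread, nor did the 2 Het levels, and the libraries of the 2 GFP-negative groups overlapped in Eomes. Tbx21 in Het GFP-positive (25.9 to 58.7 RPKM) and Eomes in the same libraries (21.6 to 29.7 RPKM) also overlapped.

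The ratio of Eomes to Tbx21 within a library does not depend on library size. In counts per kilobase, Het GFP-negative libraries held 0.0370, 0.0162 and 0.0174 Eomes per Tbx21. Het GFP-positive libraries held 0.471, 0.544 and 0.835. In no Het GFP-positive library did Eomes reach the level of Tbx21. KO GFP-negative libraries held 0.0153, 0.00760 and 0.00567, and KO GFP-positive libraries 0.118, 0.160 and 0.0761. Exact 95% intervals from the counts, which cover counting error only, ran from 0.755 to 0.924 for the highest ratio (Het GFP-positive 3) and from 0.00411 to 0.00762 for the lowest (KO GFP-negative 3). For the shallowest library, KO GFP-positive 2, the interval was 0.120 to 0.212. The KO GFP-positive ratios lay between those of the Het sorts, with no overlap with either. As a share of the pair per kilobase, Eomes made up 2.29% ± 1.11 and 37.6% ± 7.05 in GFP-negative and GFP-positive Het cells, and 0.942% ± 0.499 and 10.5% ± 3.37 in those of KO (SD, n = 3). The 2 genes together reached 49.3 ± 16.7, 72.7 ± 21.8, 77.0 ± 15.7 and 97.7 ± 15.7 RPKM in the same order, and neighbouring groups overlapped in this sum.

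**Figure D2:**
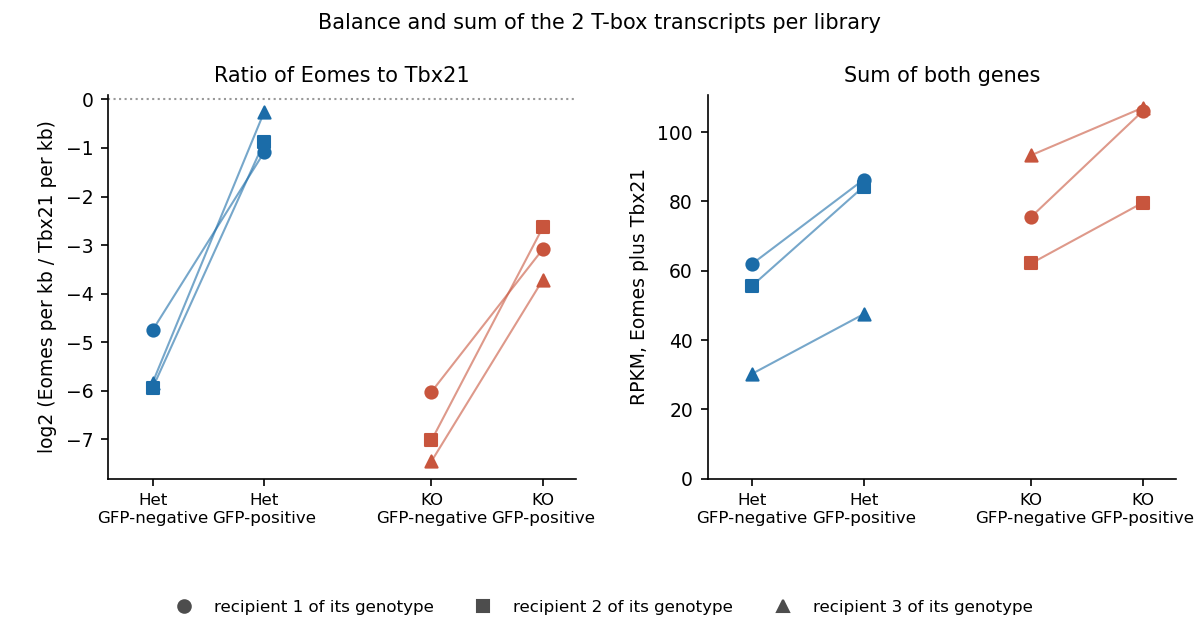
Log2 ratio of Eomes to Tbx21 counts per kilobase, with 0.5 added to each count (left), and RPKM of both genes summed (right), by group, with lines joining the libraries of a recipient. The ratio is higher in the GFP-positive library in 6 of 6 recipients, and Het GFP-positive libraries (-1.09 to -0.26) lie above KO GFP-positive libraries (-3.71 to -2.63).

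Within recipients, Eomes rose from the GFP-negative to the GFP-positive sort while Tbx21 stayed close to level. The fold change of Eomes CPM was 12.4, 33.3 and 41.1 in Het recipients 1, 2 and 3 and 9.79, 23.3 and 14.3 in KO recipients. Over the 6 recipients the mean log2 change was 4.29 ± 0.83 (SD), positive in 6 of 6, with p = 0.0312 in a two-sided exact sign-flip permutation test, the smallest p that 6 recipients allow, and 0.0938 after Benjamini-Hochberg adjustment over 6 such tests. GFP-positive above GFP-negative in all 6 recipients was seen for 17.7% of the 13238 genes tested. For Tbx21 the folds were 0.982, 0.998 and 0.869 in Het and 1.28, 1.12 and 1.08 in KO recipients. Its mean log2 change was 0.06 ± 0.19, higher in 3 of 6 recipients (exact sign-flip p = 0.5, adjusted 0.5). The log2 ratio of Eomes to Tbx21 rose by 3.66, 5.06 and 5.57 in Het and by 2.94, 4.38 and 3.73 in KO recipients. Its mean rise was 4.22 ± 0.97 (exact sign-flip p = 0.0312, adjusted 0.0938, 6 of 6 recipients). Because the sort reads a reporter in the Eomes locus, the rise of Eomes, and with it of the ratio, was set by the sort. The p-values of these 2 rises check the sort and are no further result.

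The Tbx21 value depended on what it was scaled to. When counts were set against the summed CD4 T cell markers of the same library instead of the library size, a scaling added after the data were seen, Tbx21 was higher in the GFP-positive sort in 6 of 6 recipients. Its log2 changes were then 0.31, 0.77 and 0.17 in Het and 0.71, 0.69 and 0.75 in KO recipients (mean 0.57 ± 0.26, exact sign-flip p = 0.0312, the smallest possible). This scaling moved every gene up by 0.50 on average over the recipients (0.33 to 0.77), and the Tbx21 values are to be read against that shift. Eomes rose by 4.79 ± 0.91 on the same scale. With DESeq2 size factors the mean Tbx21 change was 0.09, higher in 5 of 6 recipients (exact sign-flip p = 0.281). In bulk RNA, a smaller share of cells that transcribe a gene and less RNA per cell cannot be told apart.

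The first comparison named by the design, Het GFP-positive against Het GFP-negative, reads the expression profile of Eomes-expressing CD4 T cells. Eomes was 22-fold higher in GFP-positive cells in edgeR's quasi-likelihood test on all genes (log2 difference 4.46, SE 0.48, 95% interval 3.41 to 5.51, FDR 0.00116), and ranked 8 of 13238 genes by p. The groups did not overlap, as for 27.3% of genes tested. Tbx21 differed by -0.06 (SE 0.32, interval -0.76 to 0.64, edgeR FDR 0.937), an interval that holds changes of over 1.5-fold in either direction. In this comparison 3.45% of the tested genes passed FDR 0.05 (1.82% higher, 1.63% lower). With the recipient as a block the interval for Tbx21 narrowed to -0.36 to 0.20 (difference -0.08, SE 0.13, edgeR FDR 0.689), or 0.781- to 1.15-fold, and 22.2% of genes passed (12.8% higher, 9.41% lower). In the authors' deposited table for this comparison, Eomes had a log2 fold change of 3.79 (SE 0.38, adjusted p = 8.86e-21), rank 8 of 1406 genes listed, and Tbx21 was not listed.

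In KO cells, the same sort gave a 14.2-fold difference in Eomes (log2 3.82, SE 0.49, interval 2.77 to 4.88, edgeR FDR 0.00861). The groups did not overlap, as for 20.3% of genes tested. Eomes was the only gene called higher in KO GFP-positive cells (1 of 13238 tested, 0.00755%), beside 16 called lower (0.121%), so that 0.128% were called in all. Without KO GFP-negative replicate 3 the Eomes difference was 3.65 and its FDR 0.0575. The number of genes called also rested on single libraries. It rose from 17 to 1760 without KO GFP-positive replicate 1, and it was 5 to 11 without any other single KO library. With the recipient block, 17.7% of genes were called (9.6% higher, 8.14% lower), and Eomes had an FDR of 0.000161 by edgeR. Tbx21 differed by 0.21 (SE 0.32, interval -0.49 to 0.91, edgeR FDR 0.733), and by 0.21 with an interval of -0.07 to 0.48 in the blocked fit (FDR 0.268). In the authors' deposited table Eomes was at 3.08 (SE 0.31, adjusted p = 2.90e-19), rank 4 of 388, and Tbx21 was again not listed.

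The second comparison named by the design, Het GFP-positive against KO GFP-positive, was set up to find genes that depend on Eomes in cells whose reporter is on. The 2 groups also differed in the cre transgene and in Y-linked genes (0 to 32.0 CPM in Het and 41.5 to 221 CPM in KO). Loss of Eomes and these differences cannot be told apart in any contrast of Het and KO cells. The 12 myeloid markers summed to a median of 2190 CPM (492 to 3470) in Het and 599 CPM (303 to 1270) in KO GFP-positive libraries. In GFP-negative libraries the medians were 757 CPM (191 to 1530) in Het and 129 CPM (47.1 to 617) in KO. The genotypes overlapped in both sorts, and the part of myeloid RNA in these contrasts was not tested. Eomes checks the genotype here: it was 2.66-fold higher in the Het cells (log2 difference 1.41, SE 0.43, interval 0.48 to 2.34), with no overlap between the groups, yet it did not pass over all genes (edgeR FDR 0.421). Tbx21 was 1.91-fold lower in the Het cells (log2 -0.93, SE 0.33, interval -1.64 to -0.22, edgeR FDR 0.585), again without overlap. Neither gene was called, in a comparison where 0.106% of genes were called and 7.48% had groups that did not overlap. The ratio of Eomes to Tbx21 was higher in Het by 2.40 on the log2 scale, with all 3 Het above all 3 KO libraries (exact permutation p = 0.1, the smallest that 3 against 3 allows, adjusted 0.15). In the authors' deposited table for this contrast Eomes is listed at -1.20 (SE 0.25, adjusted p = 0.000704), rank 20 of 77, and Tbx21 is not listed. That table is named Het against KO, but its sign for Eomes is opposite to the difference found here. It was therefore read as KO over Het, a direction that its name does not give.

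GFP-negative cells of the same recipients gave the same order for Tbx21 and no separation for Eomes. Eomes differed between Het and KO GFP-negative cells by 0.77 (SE 0.47, interval -0.25 to 1.8, edgeR FDR 0.974), and the groups overlapped. Without Het GFP-negative replicate 1 the difference was -0.01. Tbx21 was 1.59-fold lower in Het (log2 -0.66, SE 0.32, interval -1.36 to 0.03, edgeR FDR 0.947), with no overlap, as for 11.3% of all tested genes. No gene was called in this comparison by edgeR (0 of 13238, 0.0%), where 695 (5.25%) had an unadjusted p under 0.05, and DESeq2 called 45. The ratio of Eomes to Tbx21 was higher in Het by 1.32 on the log2 scale (exact permutation p = 0.1, the smallest possible, adjusted 0.15).

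The difference between the sorts was not shown to differ between the genotypes for either gene. The interaction was 0.64 for Eomes (SE 0.64, interval -0.74 to 2.02) and -0.27 for Tbx21 (SE 0.46, interval -1.26 to 0.73), both at an edgeR FDR of 1.0, where 0.00755% of genes were called. With the recipient block these were 0.79 (interval -0.20 to 1.78) and -0.28 (interval -0.68 to 0.11). The rise of the log2 ratio was larger in Het than in KO recipients by 1.08, with overlap between the genotypes (exact permutation p = 0.3, adjusted 0.36). Single libraries moved these values: the Eomes interaction ran from 0.16 without KO GFP-negative replicate 1 to 1.4 without Het GFP-negative replicate 1, at an edgeR FDR of 1.0 in each case. The difference in the ratio ran from 0.68 without Het recipient 3 to 1.63 without Het recipient 1. The Het and KO contrasts in GFP-positive and GFP-negative cells share no libraries, but they compare the same recipients. The lower Tbx21 of Het cells in both contrasts is therefore not an independent repeat. Each of these contrasts also shares libraries with the within-genotype comparisons.

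**Figure D3:**
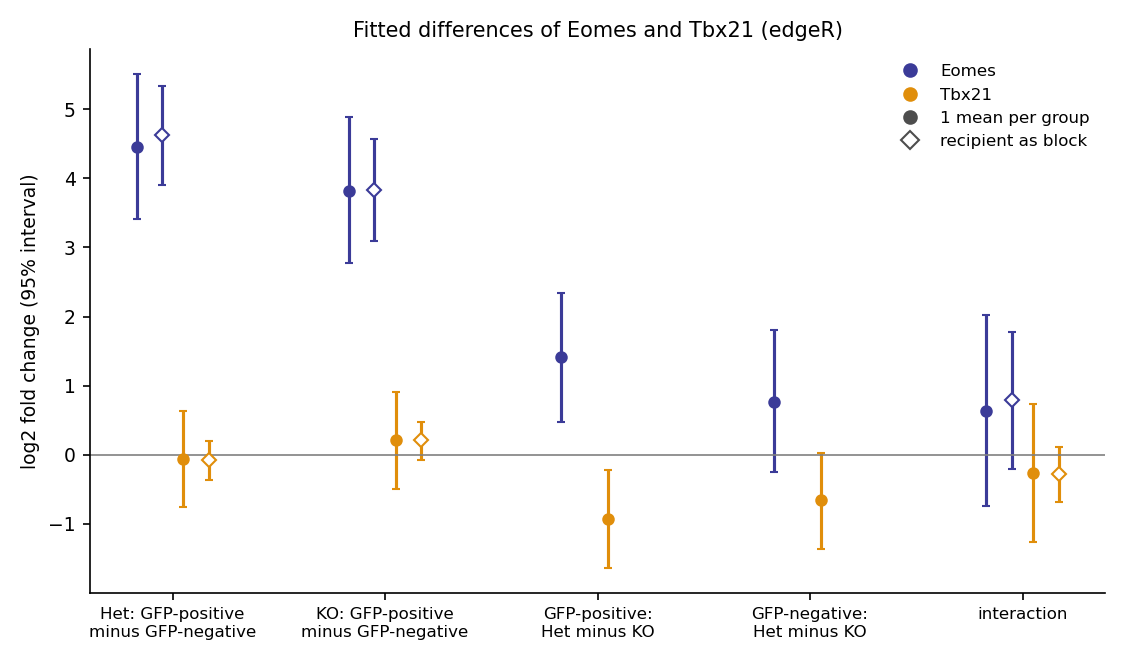
Log2 differences of Eomes and Tbx21 with 95% intervals from edgeR in the 4 comparisons and the interaction. The Eomes intervals for GFP-positive minus GFP-negative lie wholly above 2.77 in both genotypes, while the Tbx21 intervals for the same comparisons include 0.

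Of 15 other T-box genes, few were transcribed. Tbx3, Tbx4, Tbx5, Tbx10, Tbx18, Tbx20, Tbx22 and T had 0 reads in all 12 libraries. Tbx1 and Tbx15 had 2 reads each over all libraries, Tbx19 had 4, Tbx2 had 42, Tbr1 had 114 and Tbx6 had 332, against 3219 for Eomes and 21396 for Tbx21. Mga, which encodes a large protein that joins a T-box domain to the MAX network and is widely expressed, had 15554 reads. It stood at 122 ± 29.9, 120 ± 14.1, 112 ± 17.5 and 119 ± 14.3 CPM in the same order of groups as the RPKM values (SD, n = 3). Only Mga, Tbx6 and Tbr1 were tested, and 0 of them were called in any comparison with group means, by edgeR or DESeq2, or had an unadjusted edgeR p under 0.05. Tbx6, a factor of the embryonic mesoderm, was at 3.62, 2.93 and 0.511 CPM in Het GFP-negative and 8.80, 4.68 and 2.04 CPM in Het GFP-positive libraries. In KO it was at 0.734, 2.43 and 1.49 CPM in GFP-negative and 1.81, 7.85 and 3.06 CPM in GFP-positive libraries. It was higher in the GFP-positive library of all 6 recipients, on 11 to 66 reads there, a pattern that 17.7% of all genes showed. With the recipient block it was called in Het (log2 1.27, SE 0.35, edgeR FDR 0.0243) and in KO (1.32, SE 0.37, edgeR FDR 0.0343), where 22.2% and 17.7% of all genes were called.

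Of 30 genes that induce the T-box pair or work with it, 29 were tested. They include receptors and kinases of the interleukin-12, interleukin-27 and interferon-gamma pathways, RUNX factors and their partner, and regulators such as Tcf7 and Foxo1. In Het GFP-positive against GFP-negative cells 1 rose and 1 fell by edgeR, 2 of 29 where 3.45% of all tested genes were called. The median log2 difference was 0.25 against -0.02 over all tested genes. Of the 29, 18 had an unadjusted edgeR p under 0.05 (9 higher, 9 lower). DESeq2 called 9 (5 higher, 4 lower), where it called 1196 genes in all. Irf1, an interferon-induced transcription factor, was at 286, 226 and 291 CPM in Het GFP-negative and 553, 416 and 528 CPM in Het GFP-positive libraries (log2 0.90, SE 0.18, edgeR FDR 0.0192). Its groups did not overlap, as for 27.3% of all genes tested. Leaving out Het GFP-negative replicate 2 raised the FDR of Irf1 to 0.11, and leaving out Het GFP-positive replicate 1 to 0.0629. Id2, an inhibitor of E-protein factors that is known in effector lymphocytes, was at 322, 391 and 422 CPM in Het GFP-negative and 91.2, 89.8 and 152 CPM in Het GFP-positive libraries (log2 -1.77, SE 0.33, edgeR FDR 0.0142). It missed the threshold when Het GFP-negative replicate 2, or Het GFP-positive replicate 1 or 2, was left out, with FDR up to 0.0608. In KO cells 0 of the 29 passed for the same sort by edgeR, where 0.128% of all tested genes were called, with a median of 0.25 against -0.02. Of the 29, 10 had an unadjusted edgeR p under 0.05 and DESeq2 called 3. With the recipient block, 11 rose and 7 fell in Het, and 6 rose and 4 fell in KO, where 22.2% and 17.7% of all genes passed. In that fit Kdm6b, Notch1, Myb, Ezh2 and Ifngr2 rose, and Id2, Ifngr1, Tcf7 and Bhlhe40 fell, in both genotypes.

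Il12rb2, the signalling chain of the interleukin-12 receptor and itself a known T-bet target, was the only gene of the lists described here that edgeR called between the genotypes. On chromosome 6 (67291318 to 67376188, minus strand), it was at 38.8, 34.7 and 52.6 CPM in Het GFP-positive and 127, 161 and 165 CPM in KO GFP-positive libraries. It was lower in Het by 1.83 on the log2 scale (difference -1.83, SE 0.25, edgeR FDR 0.0161), in the same direction as Tbx21. In GFP-negative cells it was at 91.9, 69.6 and 54.1 CPM in Het and 81.5, 124 and 124 CPM in KO libraries, which overlapped. The call between the GFP-positive groups was lost without Het GFP-positive replicate 1 (FDR 0.104) or 2 (0.111), without KO GFP-positive replicate 2 (0.0615) or 3 (0.102), and in a fit of those 2 groups alone. DESeq2 called 2 of the 29 there, both lower in Het, and edgeR 1, where it called 0.106% of all tested genes. In GFP-negative cells 0 of the 29 were called by edgeR, where no gene of all tested was (6 at an unadjusted p under 0.05, and 1 by DESeq2). Over all genes 5.25% had such an unadjusted p.

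Of 30 genes known to be activated by T-bet or EOMES, 29 were tested. In Het GFP-positive against GFP-negative cells 4 rose and 2 fell by edgeR, where 1.82% of all genes rose and 1.63% fell (median 0.50 against -0.02 over all genes). Of the 29, 15 had an unadjusted edgeR p under 0.05 (10 higher, 5 lower). DESeq2 called 14 (9 higher, 5 lower), where it called 1196 genes in all. Gzmk, a granzyme on chromosome 13 (113171608 to 113225908, minus strand), was at 14.5, 7.28 and 13.1 CPM in Het GFP-negative and 71.7, 56.2 and 123 CPM in Het GFP-positive libraries (log2 2.86, SE 0.45, edgeR FDR 0.00752). Crtam, an adhesion receptor of cytotoxic T cells, was at 3.84, 1.29 and 2.04 CPM and 9.74, 13.3 and 23.3 CPM in the same groups (log2 2.71, SE 0.43, edgeR FDR 0.00797). Neither gene's groups overlapped, as for 27.3% of all genes tested, and both calls held without any single library of those groups. The others that rose were Il10, which encodes an anti-inflammatory cytokine (log2 4.18, FDR 0.0347), and Ccl3, a chemokine gene (3.16, FDR 0.0320), whose calls were lost without 5 and 4 of the 6 libraries taken singly, with FDR up to 0.140 and 0.126. Without Het GFP-positive replicate 3 the Ccl3 difference was 1.77. Those that fell were Il18r1, the interleukin-18 receptor (-1.40, FDR 0.00300), and Ctsw, a cathepsin gene of cytotoxic cells (-1.06, FDR 0.0389, lost without 5 of the 6 libraries taken singly, with FDR up to 0.209). So genes known as targets of the pair moved in both directions between these sorts.

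In KO cells 0 of these 29 genes passed by edgeR, where 0.128% of all tested genes were called (median -0.27 against -0.02). At that share, 0 of 29 does not set the list apart from all genes. Of the 29, 3 had an unadjusted edgeR p under 0.05 and DESeq2 called 2. Gzmk was at 28.5, 11.6 and 23.1 CPM in KO GFP-negative and 52.7, 31.4 and 19.4 CPM in KO GFP-positive libraries, which overlapped. Crtam was at 9.37, 5.11 and 6.31 CPM in KO GFP-negative and 19.3, 22.8 and 16.0 CPM in KO GFP-positive libraries. These Crtam levels did not overlap, as for 20.3% of all genes tested. With the recipient block, 11 rose and 6 fell in Het, where 22.2% of all genes passed. In KO 2 rose (Crtam and Ccl3) and 3 fell (Klrg1, Ccl5 and Il18r1). That is 5 of 29 where 17.7% of all genes passed, so the KO count is near the share over all genes. In the blocked fit the sort difference itself differed between the genotypes for 2 of the 29, where 0.0755% of all genes were called. These were Prf1, the pore-forming perforin (interaction 2.58, SE 0.37, edgeR FDR 0.0359), and Ccl5, a chemokine gene (2.51, SE 0.36, edgeR FDR 0.0359). Prf1 was at 9.42, 5.92 and 10.6 CPM in Het GFP-negative and 28.3, 25.8 and 58.2 CPM in Het GFP-positive libraries. It was at 31.5, 7.90 and 41.8 CPM in KO GFP-negative and 34.6, 2.86 and 21.4 CPM in KO GFP-positive libraries, the 2.86 resting on 4 reads. Without the block the interaction was 2.46 (SE 0.91, FDR 1.0) for Prf1 and 2.39 (SE 0.80, FDR 1.0) for Ccl5 by edgeR. Between Het and KO GFP-positive cells Il12rb2 alone of these 29 was called by edgeR, where 0.106% of all tested genes were (median -0.28 against 0.01). DESeq2 called 6, of which 2 were higher and 4 lower in Het. Between the GFP-negative groups 0 of the 29 were called by edgeR and 1 by DESeq2, and 12 had an unadjusted p under 0.05, of which 11 were lower in Het (median -0.73 against 0.01). Over all genes 5.25% had such a p in this comparison. Tbx21 was also lower in Het in both of these comparisons and called in neither (edgeR FDR 0.585 in GFP-positive and 0.947 in GFP-negative cells). The 10 NK cell and ILC1 markers other than Fcer1g and Tyrobp were lower in Het in GFP-negative cells (8.82 to 9.67 against 13.2 to 34.2 CPM). The part of either in these differences was not tested.

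The last list held 15 genes of opposing lineages and of memory cells, of which 12 were tested. In Het GFP-positive against GFP-negative cells 1 rose and 2 fell, where 3.45% of all genes were called (median -0.87 against -0.02). In KO cells 0 rose and 2 fell, where 0.128% of all genes were called (median -0.53 against -0.02). Pdcd1, the gene of the inhibitory receptor PD-1, rose in Het (log2 2.01, SE 0.33, edgeR FDR 0.00818). Il7r, the interleukin-7 receptor of naive and memory T cells, was at 445, 535 and 531 CPM in Het GFP-negative and 164, 123 and 114 CPM in Het GFP-positive libraries. It was at 354, 310 and 199 CPM in KO GFP-negative and 109, 44.3 and 52.1 CPM in KO GFP-positive libraries. It thus fell in Het (log2 -1.91, SE 0.32, edgeR FDR 0.00974) and in KO (-2.05, SE 0.33, edgeR FDR 0.0384). Its sorts did not overlap in either genotype, as for 27.3% (Het) and 20.3% (KO) of all genes tested. The KO call was lost without 4 of the 6 libraries taken singly (GFP-negative replicates 1 and 2, GFP-positive replicates 2 and 3), with FDR up to 0.235. No gene of the 12 was called between Het and KO GFP-positive cells (0 by edgeR and by DESeq2, 5 at an unadjusted p under 0.05, median 0.69 against 0.01). Over all tested genes edgeR called 0.106% there. All 3 lists were chosen with earlier results of these data known. The summed CD4 T cell markers were lower and the myeloid and erythroid markers higher in GFP-positive cells alongside these changes, and their part in them was not tested.

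**Figure D4:**
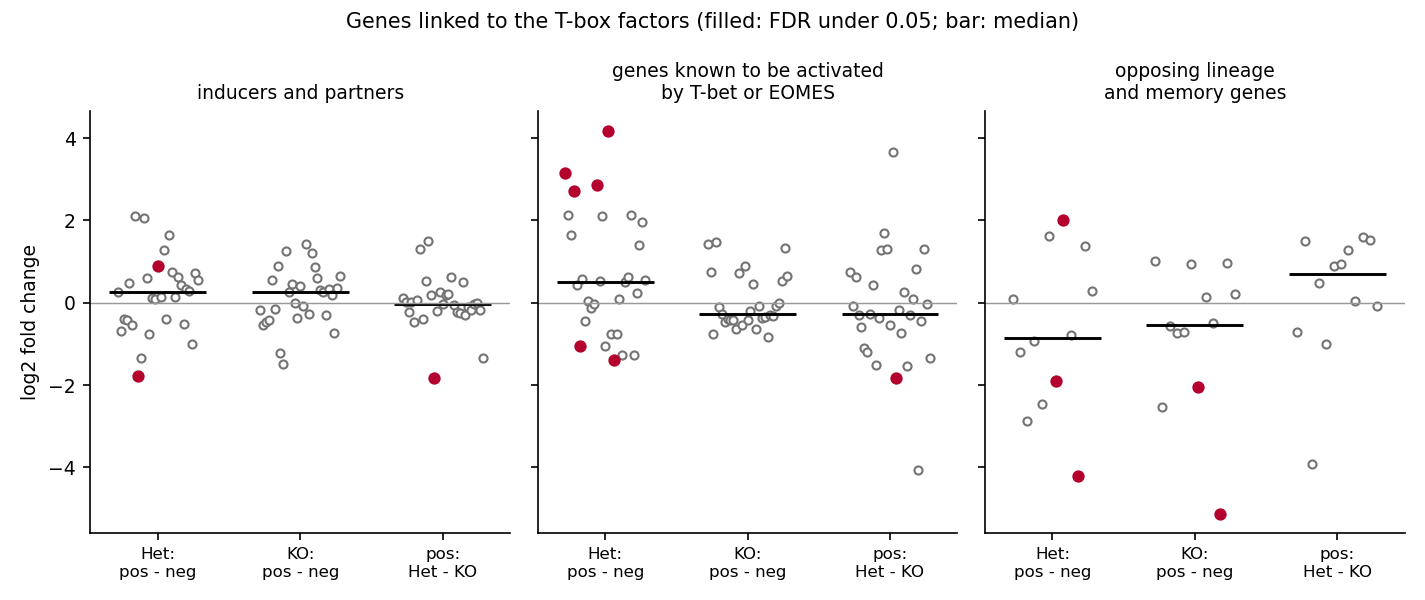
Log2 differences of the tested genes of the 3 lists in edgeR's fit with group means, each point a gene, filled where called at FDR 0.05, with bars at the medians. Of the 29 genes known to be activated by T-bet or EOMES, 6 are called between the Het sorts, 0 between the KO sorts and 1 between the GFP-positive groups. Over all tested genes 3.45%, 0.128% and 0.106% are called in the same order.

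The genes whose levels followed each T-box gene most closely over the 12 libraries were different for Eomes and Tbx21. Pearson's r of log2 CPM was computed across 10434 genes whose mean reached 5 CPM in some group. It is given as a description, since libraries share recipients and GFP sorts share depth. Eomes levels were largely set by the sort, so r with Eomes, also that of Tbx21, mainly follows differences between GFP-positive and GFP-negative libraries. The 5 closest to Eomes were Dap3 (r 0.958), Arsg (0.935), Fan1 (0.917), Kcnip3 (0.914) and Mirt1 (0.910). Dap3, which encodes a protein of the mitochondrial ribosome, was at 34.8 ± 1.90, 44.1 ± 2.16, 34.8 ± 0.132 and 41.2 ± 1.41 CPM in that same order of groups (SD, n = 3). Its pattern followed that of Eomes over a far narrower range. The 5 closest to Tbx21 were Nefh (0.937), Slamf7 (0.925), Ypel1 (0.923), Trap1 (0.921) and Hdgfl2 (0.905). Slamf7, a receptor of NK cells and activated lymphocytes on chromosome 1 (171632403 to 171653035, minus strand), was at 117, 105 and 59.3 CPM in Het GFP-negative and 148, 109 and 72.1 CPM in Het GFP-positive libraries. In KO libraries it was at 135, 133 and 185 CPM and at 170, 138 and 141 CPM in the same order. As for Tbx21, Het replicate 3 was the lowest of its group in both sorts, and so was KO replicate 2. In KO GFP-positive libraries Slamf7 was highest in replicate 1, whereas Tbx21 was highest in replicate 3. Eomes and Tbx21 themselves were at r -0.0492, rank 4913 from Eomes and 5623 from Tbx21.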

How the data were processed

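RNA was extracted with TRI reagent, depleted of ribosomal RNA and made into libraries with TruSeq Stranded Total RNA Gold, per the labels' protocols. The submitters' processing notes list bcl2fastq 1.8.4, TopHat2 2.0.13, featureCounts 1.5.0-p1, DESeq2 1.6.1 and the build mm10, without roles. The strand setting of the counting is not given in the sources used here. The authors deposited whole-number counts per gene for each library, not normalized, and a matrix with the same values (0 cells differed). The summed exon length per gene, in bases, comes from the same deposited files. The authors also deposited DESeq2 tables, per the file headers, with a mean normalized count (a signal), a log2 fold change and its standard error, a test statistic (a score), and p-values with adjusted p-values. They list only genes under an adjusted p of 0.05 and were used for description.

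Counts were tested with edgeR 4.0.16 in R 4.3.3: TMM scaling, filterByExpr (minimum count 10, minimum total 15; 13238 genes kept), 1 mean per group over all 12 libraries (common dispersion 0.0835), the quasi-likelihood F-test, and Benjamini-Hochberg adjustment over all tested genes, with a call at FDR 0.05. Standard errors are the log2 difference divided by the square root of F. Ratios and within-recipient changes used counts with 0.5 added. Correlations used log2 CPM with a prior count of 2. On simulated data for Het GFP-positive minus Het GFP-negative (13091 genes), the procedure recovered 25% of 100 genes changed 2-fold and 98% of 100 changed 4-fold, with 3.15% false calls. The simulation gave every gene the same dispersion, changed only genes with higher counts and held no recipient effect. These rates need not hold for the measured data.

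Per the design text, a shared number within a genotype marks a shared recipient. After subtraction of group means, the 2 libraries of a recipient correlated at 0.547, 0.241 and 0.617 (Pearson's r) for Het and 0.507, 0.506 and 0.263 for KO. The recipient block is an alternative. Whether donors were pooled is not stated, so p-values measure the spread between these libraries. DESeq2 1.42.0, its size factors, no filter, fits of 2 groups, removal of features above 5%, the block and each library left out were tried.

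The members, lists and tests were chosen with earlier results of these data known. Named were Eomes and Tbx21, up to 4 called genes per direction, list and comparison, and the 5 genes most similar to each member. Tbx6, Prf1, Ccl5, the further T-box genes and the genes named from blocked fits fall outside that rule and were chosen after their values were seen. 1 called gene of the last list is not reported here. Symbols were found for 42462 of 43626 genes (GENCODE M21).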

Additional observations from a re-analysis of the deposited data

Results flagged for a closer look

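Scaled with TMM factors, Tbx21 was level or slightly lower in the GFP-positive sort of Het recipients and slightly higher in that of KO recipients. Its log2 change from GFP-negative to GFP-positive was -0.03, -0.00 and -0.20 in the 3 Het recipients and 0.35, 0.16 and 0.11 in the 3 KO recipients. The mean difference, Het minus KO, was -0.28 (two-sided exact permutation p = 0.1, the smallest that 3 against 3 recipients allows). The first 2 Het changes are close to 0, and with DESeq2 size factors they were 0.00 and 0.03. With CD4 T cell markers as the scale all 6 changes were above 0, and Het (0.41 ± 0.31) and KO (0.72 ± 0.03) differed with an exact permutation p = 0.4. The interaction in edgeR was -0.27 (95% interval -1.26 to 0.73), and -0.28 (-0.68 to 0.11) with the recipient block.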

How the results depend on the processing

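Of 461 alternative values, 375 kept their direction and side of the threshold (counts of genes within 1.5 times), 6 reversed, 33 lost a call and 47 moved. Eomes between the Het sorts was called under every alternative (4.11 to 5.24 with a library left out, FDR 2.65e-19 to 0.00971). Between the KO sorts it was 3.60 to 4.32 with a library left out, and missed the threshold without KO GFP-negative replicate 3 (3.65, FDR 0.0575). Between the GFP-positive groups its FDR ran from 0.0826 to 0.904, and that of Tbx21 from 0.232 to 1.0, over the alternatives.

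Differences near 0 reversed. Tbx21 between the Het sorts ran from -0.29 to 0.27 with a library left out, at 0.14 without Het GFP-negative 1, 0.08 without Het GFP-negative 2 and 0.27 without Het GFP-positive 3, and at 0.02 with the recipient block without Het recipient 3. Eomes between the GFP-negative groups ran from -0.01 (without Het GFP-negative 1) to 1.23. The Tbx21 interaction ran from -0.50 to 0.05 (without Het GFP-positive 3).

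Counts of called genes moved most. In the order Het sorts, KO sorts, GFP-positive groups, GFP-negative groups and interaction, they were 457, 17, 14, 0 and 1, against 897, 201, 72, 26 and 6 with no filter and 1196, 403, 93, 45 and 11 with DESeq2. With only the 2 groups of a comparison fitted they were 10 for the KO sorts, 2 for the GFP-positive and 7 for the GFP-negative groups. Without features above 5% the interaction had 2. With a library left out they ran from 88 to 360, 5 to 1760, 3 to 7, 0 to 7 and 0 to 1. The lowest and highest were without Het GFP-negative 2 and 3 for the Het sorts, and without KO GFP-positive 3 and 1 for the KO sorts. With the recipient block, which pairs the sorts, 2944, 2349 and 10 genes were called for the Het sorts, the KO sorts and the interaction. With a recipient also left out, added after seeing the data, these were 1618, 1070 and 1817 for Het and 3930, 652 and 319 for KO. The block changed no call of Eomes or Tbx21. The cause of these shifts was not tested. Depth limits Eomes in GFP-negative cells (32 to 122 reads) and in KO GFP-positive 2 (64 reads).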

Other observations

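S1pr5 and Zeb2, a receptor for exit from tissue and a transcription factor that acts with T-bet in terminal effector cells, were chosen after their values were seen. S1pr5 was at 3.47, 6.24 and 2.24 CPM in Het GFP-positive and 119, 15.7 and 34.3 CPM in KO GFP-positive libraries, and at 14.6, 6.06 and 4.99 CPM in Het GFP-negative and 66.6, 22.4 and 96.9 CPM in KO GFP-negative libraries. The S1pr5 levels rest on 26, 16 and 23 reads in Het GFP-positive libraries and on 22 in KO GFP-positive replicate 2. Neither pair of groups overlapped, as for 7.48% of all tested genes between the GFP-positive and 11.3% between the GFP-negative groups. Neither difference passed (log2 -4.05, SE 0.82, edgeR FDR 0.144 in GFP-positive cells, and -2.86, SE 0.71, edgeR FDR 0.457 in GFP-negative cells). Zeb2 was at 67.9, 92.1 and 74.6 CPM in Het GFP-positive and 255, 122 and 205 CPM in KO GFP-positive libraries, also without overlap (log2 -1.33, SE 0.36, edgeR FDR 0.324). In GFP-negative cells it was at 81.5, 35.6 and 41.7 CPM in Het and 123, 80.4 and 172 CPM in KO libraries, which overlapped (log2 -1.25, SE 0.36, edgeR FDR 0.788). Both genes are also known in NK cells. The 10 NK cell and ILC1 markers other than Fcer1g and Tyrobp summed to 3.07 to 9.83 CPM in Het GFP-positive and 4.71 to 35.5 CPM in KO GFP-positive libraries, and to 8.82 to 9.67 and 13.2 to 34.2 CPM in the GFP-negative ones. Their part in these differences was not tested.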
